A study of Mus musculus with 16 samples.

Results

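Interferon response genes were followed in the duodenum and ileum of mice that lack enteroendocrine cells. The group holds 40 named genes of the 55359 in the deposited count table, chosen by symbol, and all 40 were found and tested in every comparison. They fall into 30 antiviral and related genes and 10 interferon-inducible GTPases, of which 4 belong to the Gbp family and 6 to the Irg family. Total RNA was sequenced from both tissues of 8 adult male C57BL/6N mice on a high fat diet, 5 weeks after tamoxifen. The 4 mutant mice were Neurog3f/f; Villin-CreERT2 and the 4 control mice were Neurog3f/f, so that both genotypes carry the floxed allele and only the mutants carry the recombinase. Neurog3 encodes the transcription factor that starts the enteroendocrine lineage, and the Villin promoter drives the tamoxifen-dependent Cre in the intestinal epithelium. A group without floxed Neurog3 that carries the recombinase was not analysed here. Mice are named by genotype letter and number, C133, C134, C151 and C154 for control and M136, M167, M168 and M177 for mutant.

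Interferons are secreted signals that act through receptor pairs and Janus kinases on STAT and IRF transcription factors. Type I and type III interferons act through the complex of STAT and IRF9 proteins on the interferon-stimulated response element (ISRE), which drives antiviral effectors such as the Ifit, Oas and Mx proteins. Type II interferon, made mainly by T cells and innate lymphocytes, acts through the gamma-activated site (GAS) and is a strong inducer of the Gbp and Irg GTPases, which attack the membranes of vacuoles that hold intracellular pathogens. In the intestine, enterocytes respond mainly to type III interferon and immune cells of the lamina propria to type I.

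Both elements occur among the promoter sequences of the members, though not in each. Stretches are printed for 5 antiviral members and 5 GTPases, chosen after the matches were seen to show single, repeated, overlapping and joined copies. Windows of 300 bases, from 250 before to 50 after the transcription start, came from RefSeq on GRCm38.p6 and existed for 29 of the 40 members, 21 antiviral and 8 GTPases. The ISRE core was searched on both strands as GAAANNGAAA and the GAS as TTCNNNGAA. Some genes had more than 1 window, and a gene was counted once if any of its windows held a match. The ISRE core was found for 12 of the 21 antiviral genes (57.1%) and 7 of the 8 GTPase genes (87.5%). Of the 27025 genes in the table, 3.99% had it. The GAS was found for 4 of the 21 antiviral genes (19%) and 4 of the 8 GTPase genes (50%), against 9.55% of all genes. Both elements occurred for 2 antiviral and 4 GTPase genes, and neither for 7 antiviral genes and 1 GTPase gene. Of all 27025 genes, 166 had both and 23530 had neither. A match is a string of letters, not a tested binding site. The stretches below run 5′ to 3′ along the gene's strand, in GRCm38.p6 coordinates, with the matches in capitals. The first set shows antiviral members with the ISRE core alone.
Isg15 (chr4:156200845-156200926, minus strand): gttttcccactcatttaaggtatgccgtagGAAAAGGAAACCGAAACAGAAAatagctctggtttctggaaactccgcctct
Ifit1 (chr19:34640755-34640843, plus strand): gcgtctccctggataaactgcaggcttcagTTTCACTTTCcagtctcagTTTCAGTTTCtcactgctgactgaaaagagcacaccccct
Ifit3 (chr19:34583343-34583446, plus strand): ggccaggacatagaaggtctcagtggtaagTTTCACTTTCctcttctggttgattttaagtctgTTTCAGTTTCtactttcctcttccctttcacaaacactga
Ddx60 (chr8:61928004-61928086, plus strand): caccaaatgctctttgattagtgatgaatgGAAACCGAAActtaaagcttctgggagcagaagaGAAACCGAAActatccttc
Stat2 (chr10:128270248-128270315, plus strand): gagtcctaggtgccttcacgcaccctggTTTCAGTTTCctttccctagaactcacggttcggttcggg
In Isg15 3 overlapping matches run together, while Ifit1, Ifit3 and Ddx60 each hold 2 separate copies and Stat2 holds 1. The next set shows GTPases. In Igtp, Irgm2 and Tgtp1 a GAS is followed after 2 bases by an ISRE core, whereas Gbp2 and Gbp3 hold the ISRE core alone.
Igtp (chr11:58199481-58199555, plus strand): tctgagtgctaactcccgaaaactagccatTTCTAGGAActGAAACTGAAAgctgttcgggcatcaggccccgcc
Irgm2 (chr11:58214872-58214952, plus strand): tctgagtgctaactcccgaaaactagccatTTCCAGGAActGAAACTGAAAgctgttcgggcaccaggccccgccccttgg
Tgtp1 (chr11:48992284-48992364, minus strand): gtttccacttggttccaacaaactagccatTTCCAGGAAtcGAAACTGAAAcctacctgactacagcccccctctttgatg
Gbp2 (chr3:142620574-142620643, plus strand): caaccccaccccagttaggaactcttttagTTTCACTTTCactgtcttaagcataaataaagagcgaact
Gbp3 (chr3:142559969-142560043, plus strand): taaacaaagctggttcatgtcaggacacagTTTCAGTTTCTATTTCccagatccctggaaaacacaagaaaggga
That joined arrangement, looked for after these sequences had been seen, was found for 3 of the 8 GTPase genes (37.5%), 0 of the 21 antiviral genes and 5 of all 27025 genes (0.0185%). These 3 Irg genes are close relatives and share surrounding letters, so the 3 matches are not independent.

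Library totals were 40.9 to 67.2 M counts. Levels are given in CPM, the counts of a gene scaled to a common library size and composition, and n is 4 mice per group. The labels do not say how the mice were housed or whether they were littermates, so p-values measure the spread between these mice. Neurog3 was 2.59 ± 0.145 CPM (SD, n = 4) in control duodenum and 0.0059 ± 0.0118 in mutant duodenum, and 0.89 ± 0.224 against 0.00411 ± 0.00821 in ileum, which matched the genotype labels. Ileum markers summed to 2.21 to 5.97 CPM in control duodenum and 1390 to 2130 CPM in control ileum, as the tissue labels say. Transcripts of exocrine pancreas differed widely between duodenum libraries, with summed levels of 3.91 to 30000 CPM in control and 8270 to 184000 CPM in mutant mice, highest in M167 and M177. Markers of B cells and lymphoid follicles were high in C134 and C154, at 53.4 and 92.9 CPM in duodenum against 10.9 and 11.4 in the other controls, and the same mice were far above the others in ileum, with 175 CPM in C154 against 8.82 and 11.7 in C133 and C151. Counts of members that passed are given with and without these mice, and the members whose calls were lost without them are named. Since this is whole tissue, fewer cells of a type and less RNA per cell cannot be told apart.

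In the duodenum, interferon response genes of both classes were lower in mutant than in control mice, and none was higher. Of the 30 antiviral members, 18 fell at an adjusted p under 0.05 (edgeR quasi-likelihood test, Benjamini-Hochberg adjustment over all 17611 genes tested), with a median log2 fold change of -1.31 (-2.19 to -0.51). Of the 10 GTPases, 9 fell, with a median of -1.01 (-2.10 to -0.76). Across all genes tested, 5.11% fell and the median was 0.02. The fitted difference was below 0 for all 40 members, against 47.4% of all genes, and in 36 of the 40 every mutant mouse lay below every control mouse, against 10.8% of all genes. The plot of fold changes shows both classes on the same side of 0 in both tissues.

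**Figure D1:**
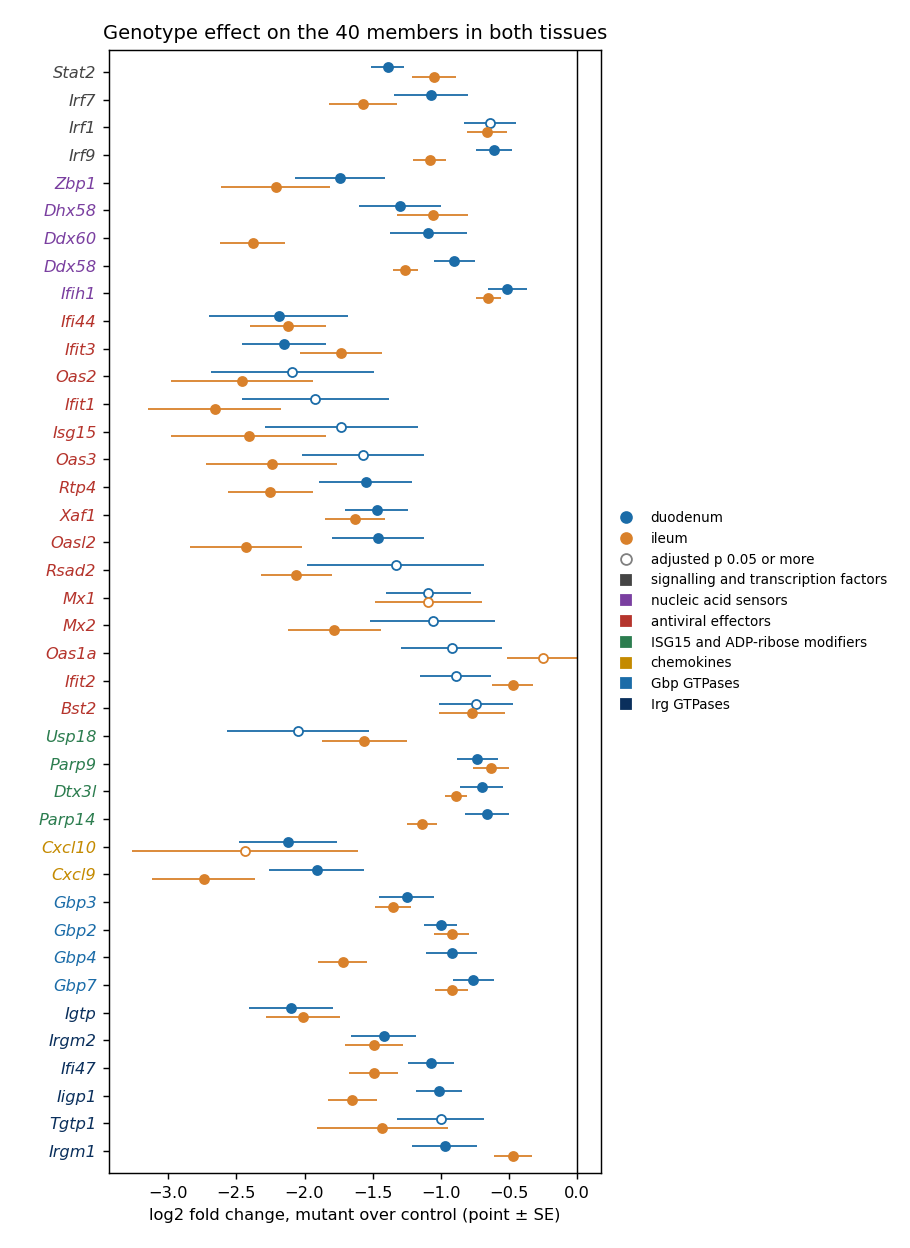
Log2 fold change of mutant over control for each of the 40 members in duodenum (blue) and ileum (orange), with standard errors; open points did not pass an adjusted p of 0.05, and label colours give the role. All points lie below 0, with 27 filled in duodenum and 37 in ileum.

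Many of these calls depended on which mice were in the fit, while the direction did not: all 40 differences stayed below 0 in each fit that left out 1 mouse or either pair. The antiviral count was 7 without C133 (2.29% of all genes), 7 without C151 (1.96%), 10 without C134 (2.31%), 10 without M177 (2.46%) and 28 with DESeq2 (9.37%). The 11 members that passed whichever single mouse was left out were Stat2, Ifit3, Ddx58, Xaf1, Cxcl10, Gbp2, Gbp3, Iigp1, Igtp, Irgm2 and Ifi47. Without C134 and C154 together, 9 antiviral members and 8 GTPases passed (0.893% of all genes). The 11 calls lost there were those of Irf7, Irf9, Oasl2, Ifih1, Dhx58, Rtp4, Parp9, Dtx3l, Cxcl9, Cxcl10 and Gbp4, with adjusted p of 0.0517 to 0.156 (edgeR). Without M167 and M177 together, 10 antiviral members and 1 GTPase, Gbp2, passed (1.66% of all genes), and the median log2 fold change of the GTPases was -0.93. The 18 calls lost there were those of Irf7, Irf9, Oasl2, Ifih1, Ddx60, Rtp4, Zbp1, Ifi44, Parp14, Dtx3l and all GTPases that had passed except Gbp2, with adjusted p of 0.0505 for Ifi47 to 0.271 for Ddx60. Stat2, Ifit3, Ddx58, Xaf1 and Gbp2 passed without either pair.

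Among the signalling and transcription factors, 3 of 4 fell in the duodenum. Stat2, the STAT protein specific to type I and type III signalling, was 61.8, 51.6, 62.8 and 44.0 CPM in C133, C134, C151 and C154 and 22.4, 19.9, 19.5 and 21.2 CPM in M136, M167, M168 and M177. The groups did not overlap and the mutant mice were close to each other. The log2 fold change of Stat2 was -1.39 (SE 0.12), with an adjusted p of 0.000259, from 55.0 ± 8.93 to 20.8 ± 1.34 CPM (SD, n = 4). Irf9, the DNA-binding partner of the STAT pair, fell from 67.9 ± 9.15 to 44.1 ± 6.4 CPM, and Irf7, the amplifier of interferon gene transcription, from 150 ± 32.7 to 71.2 ± 24.5 CPM. Irf1, which also acts downstream of type II interferon, was 158 ± 32.6 and 100 ± 23.1 CPM without overlap, but missed the threshold (adjusted p = 0.0629).

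All 5 nucleic acid sensors fell in the duodenum. Ddx58, which encodes the RNA sensor RIG-I, was 122, 97.6, 126 and 116 CPM in the control mice and 79.2, 49.2, 60.5 and 55.9 CPM in the mutants. Every mutant mouse lay below every control mouse. The log2 fold change of Ddx58 was -0.90 (SE 0.15, adjusted p = 0.00749). The largest difference of the sensors was that of Zbp1, a sensor of Z-form nucleic acid that triggers necroptosis, from 38.5 ± 13 to 11.5 ± 3.91 CPM (log2 fold change -1.74). The smallest was that of Ifih1, which encodes the RNA sensor MDA5, from 175 ± 17.5 to 122 ± 22.5 CPM (log2 fold change -0.51, adjusted p = 0.0499). Dhx58, the regulator LGP2, and Ddx60, a helicase that assists RIG-I, lay between them at -1.30 and -1.09.

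The antiviral effectors had wide spreads, and only 5 of the 15 passed the test in the duodenum although their median log2 fold change was -1.47. Ifit3, an adaptor of the complex that binds viral RNA ends, was 22.9, 16.9, 25.7 and 16.2 CPM in controls and 4.28, 2.31, 4.59 and 7.17 CPM in mutants. The highest mutant mouse, M177, was well below the lowest control. Ifit3 fell by 2.15 (SE 0.31, adjusted p = 0.0064). Xaf1, a pro-apoptotic factor, was 18.4, 13.8, 22.8 and 12.3 CPM against 7.2, 4.2, 5.59 and 7.2 CPM, again with no overlap, and fell by 1.47 (SE 0.23, adjusted p = 0.0064). Ifi44, Rtp4 and Oasl2 also fell, with log2 fold changes of -2.19, -1.55 and -1.46. The other 10 did not pass: Isg15, a ubiquitin-like modifier, was 12.7 ± 4.53 and 3.82 ± 2.59 CPM (log2 fold change -1.73, adjusted p = 0.0944), and Ifit1 was 107 ± 49.6 and 28.1 ± 14.5 CPM (-1.92, adjusted p = 0.0737). The largest adjusted p of a member was that of Rsad2, which encodes viperin, at 0.228, with 9.61 to 54.9 CPM in controls and 4.51 to 23.1 CPM in mutants. Oas2, Oas3, Oas1a, Mx1, Mx2, Ifit2 and Bst2 had log2 fold changes of -2.09 to -0.74 and adjusted p of 0.0535 to 0.162.

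Of the genes for ISG15 and ADP-ribose modification, 3 of 4 fell in the duodenum. Parp9, a mono-ADP-ribosyltransferase partner of Dtx3l, was 130, 117, 145 and 120 CPM in controls and 88.7, 58.5, 89.7 and 67.8 CPM in mutants. The groups were apart, and Parp9 fell by 0.73 (SE 0.15, adjusted p = 0.0163). Dtx3l, its ubiquitin ligase partner, and Parp14 fell by 0.70 and 0.66. Usp18, the protease that removes ISG15 and restrains the type I receptor, was 30.4 ± 12.9 and 7.29 ± 3.56 CPM (log2 fold change -2.05) but did not pass (adjusted p = 0.0574).

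Both chemokines, which draw in T cells through CXCR3, fell in the duodenum. Cxcl10 was 2.16, 2.67, 3.97 and 2.19 CPM in controls and 0.617, 0.307, 1.09 and 0.471 CPM in mutants. No mutant reached the lowest control, and Cxcl10 fell by 2.12 (SE 0.36, adjusted p = 0.00875). Cxcl9, the chemokine most specific to type II interferon, fell from 16.7 ± 3.31 to 4.39 ± 2.32 CPM, by 1.91.

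All 4 Gbp genes and 5 of the 6 Irg genes fell in the duodenum. Gbp2 was 42.1, 40, 46.7 and 40.2 CPM in controls and 24.3, 17.9, 23.0 and 18.7 CPM in mutants. Both groups were tight and well apart, and Gbp2 fell by 1.0 (SE 0.12, adjusted p = 0.0014). Gbp3 was 24.7, 19.1, 29.9 and 16.9 CPM against 11.9, 6.96, 9.23 and 9.47 CPM, with no overlap, and fell by 1.25 (SE 0.20, adjusted p = 0.00745). Gbp4 and Gbp7 fell by 0.92 and 0.76.

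Of the Irg genes, Ifi47 (Irgd) was 31.9, 26.3, 38.9 and 23.1 CPM in controls and 15.6, 11.1, 15.4 and 14.5 CPM in mutants. Ifi47 fell by 1.07 (SE 0.17, adjusted p = 0.0064) with no overlap. Iigp1 (Irga6), an effector that coats pathogen vacuoles, was 15.9, 15.3, 25 and 16 CPM against 9.47, 7.88, 9.64 and 8.47 CPM. C151 stood above the other control mice, and every mutant was below every control. Iigp1 fell by 1.01 (SE 0.17, adjusted p = 0.00784). Irgm1, Irgm2 and Igtp (Irgm3) are the regulatory members that hold the effectors inactive on host membranes, and fell by 0.97, 1.42 and 2.10. Igtp had the largest difference of the 10 GTPases, from 57.4 ± 22.6 to 13.2 ± 3.24 CPM. Tgtp1 was low, at 0.687 ± 0.221 and 0.338 ± 0.0531 CPM, and did not pass (adjusted p = 0.0716). Reads of Tgtp1 and its near-identical copy Tgtp2 may be split or discarded, as may those of Ifit3 and Ifit3b, so their levels are uncertain.

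**Figure D2:**
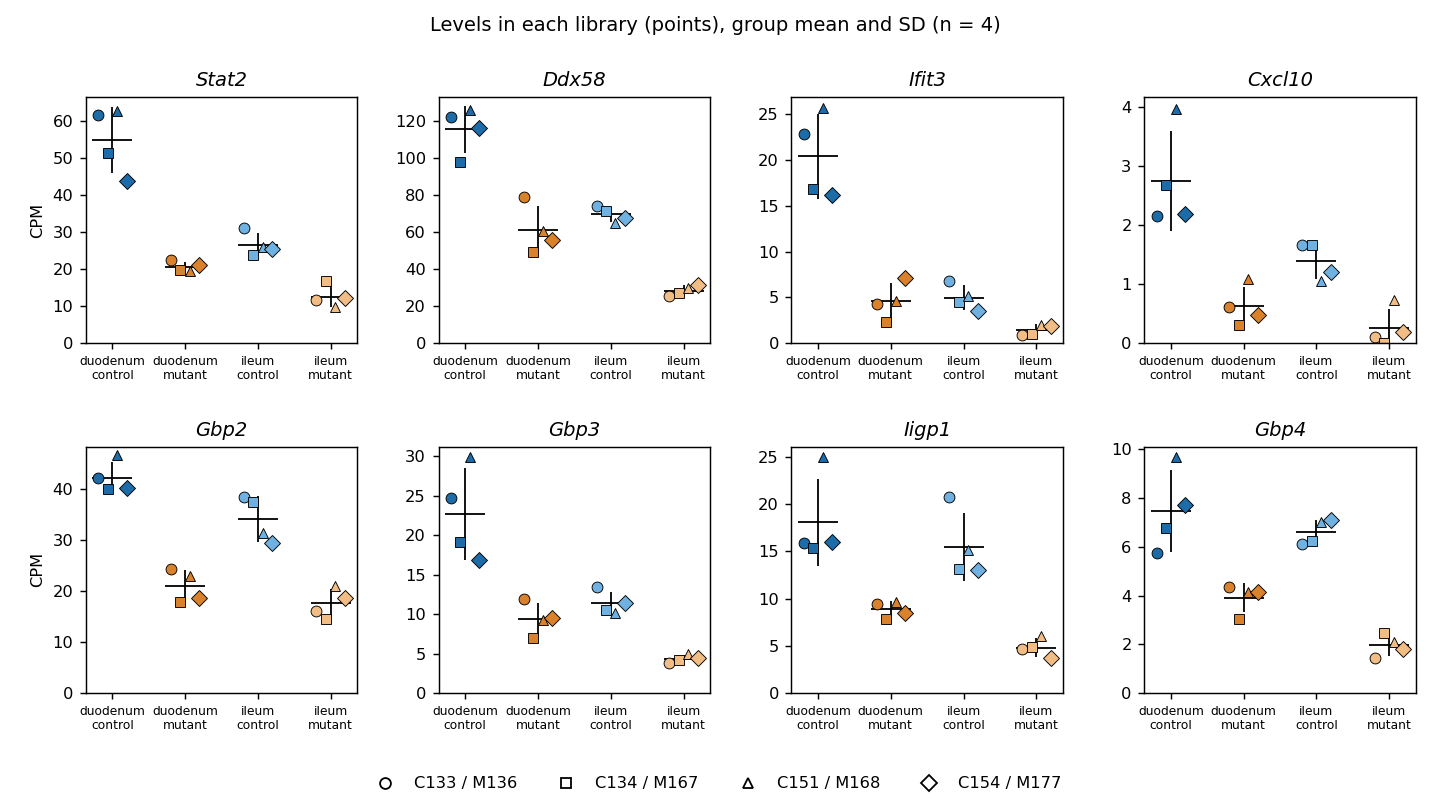
CPM of 8 members in each library, on linear axes from 0, by tissue and genotype; marker shapes give the mouse, and lines give the mean and SD (n = 4). Control duodenum is highest and mutant ileum lowest for all 8, and the mean of control ileum is above that of mutant duodenum for each of them. Of all members, control ileum had the higher of these 2 means for 9 of the 30 antiviral members and all 10 GTPases.

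In the ileum the members were again lower in mutant mice, and more of them passed the test. Of the 30 antiviral members, 27 fell (median log2 fold change -1.60, -2.74 to -0.25), and all 10 GTPases fell (median -1.46, -2.01 to -0.47). Across the 18310 genes tested in ileum, 14.6% fell and 19% rose, and the median was -0.03. Every mutant lay below every control for 28 antiviral members and 9 GTPases, against 16% of all genes. All 40 members again had a difference below 0, against 52.4% of all genes. Both tissues passed the test for 17 antiviral members and 9 GTPases, and neither for Mx1 and Oas1a. The share of all genes that fell in both tissues is not given here, so this overlap is not read as a result. In the duodenum alone the test was passed by Cxcl10, and in the ileum alone by 10 antiviral members and by Tgtp1. That does not show that the tissues differ for them. Without C134 and C154 the ileum counts were 25 and 9 (8.72% of all genes), with Bst2, Parp9 and Tgtp1 lost. Without M167 and M177 they were 24 and 8 (10.9% of all genes), with Irf1, Ifit2, Oas3, Bst2, Irgm1 and Tgtp1 lost and Mx1 gained.

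Ddx58 was 73.9, 71.5, 65.0 and 67.8 CPM in ileum of C133, C134, C151 and C154 and 25.4, 27.1, 29.6 and 31.6 CPM in M136, M167, M168 and M177. The mice of each genotype were close together, and Ddx58 fell by 1.26 (SE 0.09, adjusted p = 2.58e-05). Dtx3l was 179.1, 172.6, 153.6 and 165.5 CPM against 93.9, 86.8, 85.2 and 87.1 CPM, and fell by 0.89 (SE 0.08, adjusted p = 6.15e-05). Parp14, an ADP-ribosyltransferase, was 158, 127, 137 and 115 CPM against 54.1, 65.7, 64.5 and 54.2 CPM. The 2 groups of mice did not overlap for either gene, and Parp14 fell by 1.14 (SE 0.11, adjusted p = 8.02e-05).

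The antiviral effectors, of which 13 of 15 fell in ileum, had a median log2 fold change of -2.06. Ifit1 fell from 16.2 ± 6.92 to 2.5 ± 1.52 CPM, Isg15 from 1.64 ± 0.495 to 0.306 ± 0.262 CPM and Rsad2 from 8.93 ± 2.34 to 2.09 ± 0.752 CPM. The exceptions were Oas1a, at 7.29 ± 3.07 and 6.00 ± 1.41 CPM (log2 fold change -0.25, adjusted p = 0.489), and Mx1 at 0.563 ± 0.196 and 0.257 ± 0.0924 CPM (-1.09, adjusted p = 0.0539). All 4 signalling genes and all 5 sensors fell. Cxcl9 fell from 6.49 ± 2.08 to 0.957 ± 0.556 CPM. Cxcl10 was 1.67, 1.66, 1.06 and 1.2 CPM in controls and 0.0986, 0, 0.732 and 0.196 CPM in mutants. All mutants were lower, but M168 stood above the others, and the difference did not pass (log2 fold change -2.44, SE 0.83, adjusted p = 0.051). Without M168 the log2 fold change of Cxcl10 was -3.83 with an adjusted p of 0.00332, and it also passed without M167.

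Among the GTPases in ileum, Gbp3 was 13.4, 10.5, 10.2 and 11.4 CPM in controls and 3.84, 4.16, 4.90 and 4.50 CPM in mutants. Gbp3 fell by 1.35 (SE 0.13, adjusted p = 7.4e-05), with wide space between the groups. Gbp4 was 6.11, 6.25, 7 and 7.09 CPM against 1.46, 2.45, 2.09 and 1.82 CPM, and fell by 1.72 (SE 0.18, adjusted p = 0.000101). Iigp1 was 20.7, 13.1, 15.1 and 13.0 CPM against 4.70, 4.83, 6.06 and 3.68 CPM, and fell by 1.65 (SE 0.18, adjusted p = 0.000132). For both genes the lowest control was above the highest mutant. The smallest change was that of Irgm1, from 44.3 ± 10.7 to 31.3 ± 2.28 CPM, where C154 at 33.7 CPM lay just below M136 at 33.9 CPM. Irgm1 fell by 0.47 (SE 0.14, adjusted p = 0.027). Igtp again had the largest difference, from 13.6 ± 6 to 3.28 ± 0.593 CPM, a log2 fold change of -2.01.

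**Figure D3:**
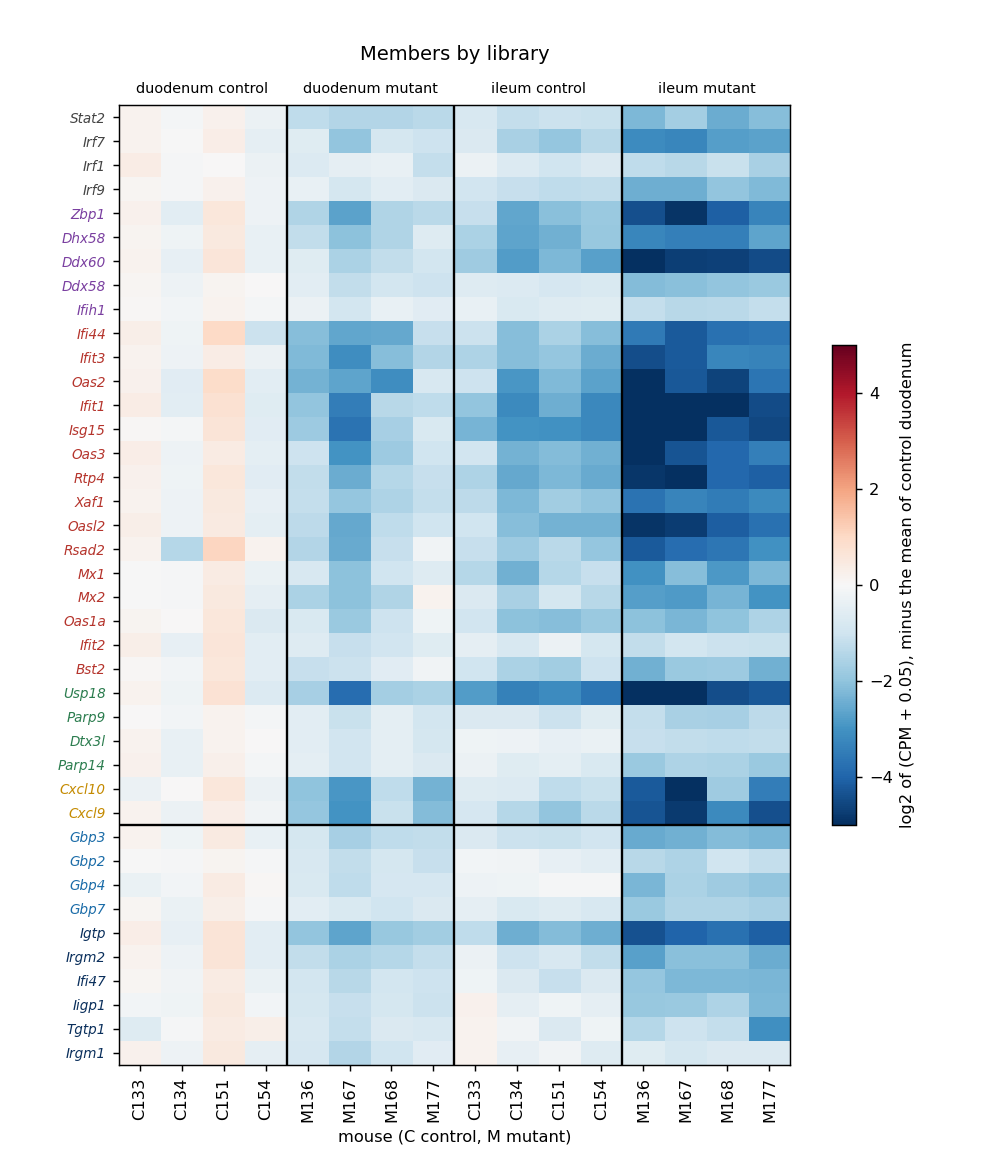
Heat map of the 40 members (rows, antiviral above the line and GTPases below) in the 16 libraries (columns), as log2 of CPM plus 0.05 minus the mean of the 4 control duodenum libraries; the colour scale is limited to -5 and 5. The darkest cells are those of antiviral rows in the mutant ileum columns.

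Whether the genotype effect differed between the tissues was tested directly. At an adjusted p under 0.05 (edgeR, all 16 libraries, 19289 genes tested), 0 of the 40 members passed, against 4.13% of all genes lower and 4.86% higher, and 3 antiviral members and 2 GTPases had an unadjusted p under 0.05. The median difference, ileum effect minus duodenum effect on the log2 scale, was -0.36 for the antiviral members and -0.15 for the GTPases, against -0.06 for all genes. The same mice gave both tissues, and with the mouse as a block 3 antiviral members and 2 GTPases passed. All had a larger decrease in ileum, as did 10% of all genes. The antiviral count is near that share, and the GTPase count rests on 10 genes. DESeq2 without the block passed 1 of each class, but the share of all genes in that fit is not given here, so the count is not read as a result. A miss of the threshold does not show that the effects are alike: for 39 of the 40 members the 95% interval reached a difference beyond 0.5 on the log2 scale.

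The smallest p-values were those of Ddx60, Gbp4 and Irf9. Ddx60 was 204, 135, 275 and 140 CPM in duodenum of the controls, 119, 60.1, 77.1 and 95.1 CPM in that of the mutants, 52.1, 25.9, 37.8 and 27.2 CPM in control ileum and 4.91, 6.77, 6.99 and 8.16 CPM in mutant ileum. The fitted mutant level was 46.9% of control in duodenum and 19.2% in ileum, and the effects differed by -1.31 (SE 0.40, adjusted p = 0.0528, 0.023 with the block). Gbp4 was 5.75, 6.75, 9.69 and 7.72 CPM in control duodenum and 4.36, 3.02, 4.13 and 4.13 CPM in mutant duodenum, beside the ileum values above. Its effects differed by -0.82 (SE 0.26, adjusted p = 0.0541, 0.0355 with the block). Irf9 was 71.9, 65.1, 77.9 and 56.6 CPM in control and 51.8, 37.0, 46.4 and 41.3 CPM in mutant duodenum, and 35.1, 30.1, 28.3 and 29.0 against 12.5, 12.5, 17.2 and 14.6 CPM in ileum. For Irf9 the effects differed by -0.49 (SE 0.19, adjusted p = 0.0922, 0.0399 with the block). Parp14 and Iigp1 were the others that passed with the block, at adjusted p of 0.0483 and 0.0464.

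The median difference between tissues was larger for the antiviral members than for the GTPases, but the classes were not tested against each other. Their ranges overlapped in control mice, at -3.31 to -0.31 and -2.07 to -0.17 on the log2 scale. In control mice, 28 of the 30 antiviral members were lower in ileum than in duodenum at an adjusted p under 0.05 (edgeR, median log2 fold change -1.68), and 6 of the 10 GTPases (median -0.48), against 30.3% of all genes. The 4 GTPases that did not pass were Gbp4, Iigp1, Irgm1 and Tgtp1, with log2 fold changes of -0.27 to -0.17. In mutant mice the counts were 28 of 30 (median -1.84) and 7 of 10 (median -0.90), against 18.2% of all genes. The largest tissue difference in control mice was that of Usp18, from 30.4 ± 12.9 CPM in duodenum to 3.03 ± 0.803 CPM in ileum (log2 fold change -3.31, SE 0.35). Isg15 followed at 12.7 ± 4.53 and 1.64 ± 0.495 CPM (-2.93, SE 0.29). Igtp, alone of the GTPases, differed by more than 1 on the log2 scale (-2.07, SE 0.40). Without C151 the GTPase count in control mice was 3 of 10, Gbp3, Gbp7 and Igtp (24.9% of all genes). Without C134 and C154 the control counts were 23 of 30 and 6 of 10 (27.2% of all genes): Irf1, Irf7, Oas1a, Oas2, Oas3, Oasl2, Cxcl9 and Ifi47 no longer passed, and Ifit2, Dtx3l and Irgm1 did. Without M167 and M177 the mutant counts were 26 and 7 (14.1% of all genes), with Oas3 and Mx2 lost.

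**Figure D4:**
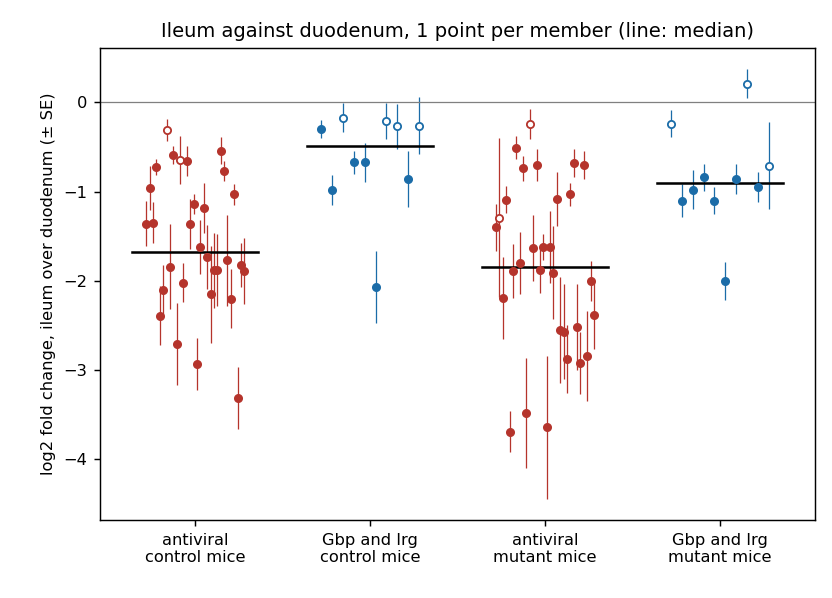
Log2 fold change of ileum over duodenum for each member, with standard errors, in control and mutant mice, for antiviral members (red) and GTPases (blue); open points did not pass an adjusted p of 0.05 and lines are medians. The medians are -1.68 and -0.48 in control mice and -1.84 and -0.90 in mutant mice.

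Control duodenum had the highest group mean for all 40 members. Mutant ileum had the lowest for all 30 antiviral members and for 9 of the 10 GTPases, with Irgm1 lower in mutant duodenum (27.4 ± 6.59 CPM) than in mutant ileum (31.3 ± 2.28 CPM), a difference that did not pass (adjusted p = 0.353). The middle of the order is described by class and was not tested. Control ileum had a higher mean than mutant duodenum for all 10 GTPases and for 9 of the 30 antiviral members. Most of these neighbours overlapped. Every control ileum library exceeded every mutant duodenum library for 4 GTPases and 2 antiviral members, and the reverse held for 2 antiviral members. The share of all genes with such orders of the groups is not given here, so these counts are not read as a result. Mutant ileum kept a median of 10.1% of the control duodenum mean in the antiviral members, from 2.34% for Ifit1 to 44.7% for Ifit2. The GTPases kept 26.4%, from 5.71% for Igtp to 57.9% for Irgm1.

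As a single level per library, the mean log2 CPM of the antiviral members relative to control duodenum was -1.37 ± 0.49 in mutant duodenum, -1.56 ± 0.33 in control ileum and -3.18 ± 0.32 in mutant ileum (SD, n = 4). The GTPase level was -1.13 ± 0.21, -0.64 ± 0.25 and -2.01 ± 0.19. The gap between the classes, antiviral minus GTPase, was -0.15 to 0.17 in the control duodenum libraries and -0.63 to 0.07 in mutant duodenum. It was -1.06 to -0.80 in control ileum and -1.52 to -0.66 in mutant ileum, so that all ileum libraries had the antiviral members further below control duodenum than the GTPases. These levels are descriptions over chosen genes and were not tested.

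**Figure D5:**
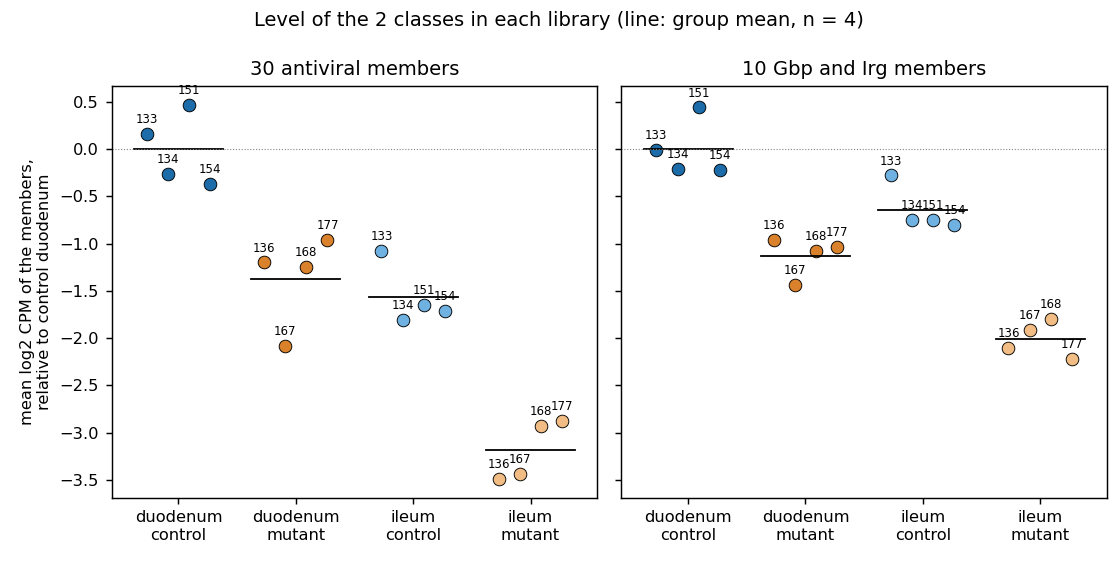
Mean log2 CPM of the 30 antiviral members (left) and the 10 GTPases (right) in each library, relative to the mean of control duodenum; points carry mouse numbers and lines are group means (n = 4). The antiviral points of mutant ileum lie between -3.49 and -2.88 and the GTPase points between -2.22 and -1.80.

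Mice of a group moved together across members. In control duodenum C151 was the highest mouse for 28 of 30 antiviral members and 10 of 10 GTPases, against 21.9% of all genes, and in control ileum C133 was the highest for 27 and 9, against 24.8%. In mutant duodenum M167 was the lowest for 26 and 9, against 27% of all genes, and M167 also had the highest pancreas transcripts, 184000 CPM. M177, with 179000 CPM of the same transcripts, was the highest mutant for 17 of the 30 antiviral members, against 25.5% of all genes. For the GTPases it was the highest in 3 of 10, which is near that share. In control duodenum these transcripts were 30000 and 19000 CPM in C133 and C151, and 8.61 and 3.91 CPM in C134 and C154. C134 and C154, the mice with high B cell markers, were the lowest for 10 and 19 of the 30 antiviral members (33.3% and 63.3%). The shares of all genes were 28.2% and 29%, so the count of C134 is near its share. Any part of pancreas or follicle content in the member levels was not tested. The median coefficient of variation in control duodenum was 28.9% for antiviral members and 25.8% for GTPases, against 12.6% for all genes tested. In mutant duodenum it was 36.2% and 15.2%, against 19.6%.

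Genes elsewhere in the pathway were read from lists of their own. Of 11 interferon genes, none had enough counts for a test: 5 had 0 counts in all 16 libraries and 5 had 1 to 5 counts in total. Ifng, the gene for type II interferon, had 31 counts in all, with 16 in control duodenum, 6 in mutant duodenum, 9 in control ileum and 0 in mutant ileum. Such counts are too few to read a difference at this depth. Of 6 receptor chains and 3 Janus kinases, 0 of 9 passed in duodenum (edgeR, median log2 fold change -0.31, 4 of 9 at an unadjusted p under 0.05) and 1 of 9 in ileum (median -0.13), against 5.11% and 14.6% of all genes, so that the ileum count is near the background. The 1 was Ifnar2, a chain of the type I receptor, which fell from 12.3 ± 1.61 to 8.87 ± 0.806 CPM (adjusted p = 0.0256). In duodenum, Tyk2, the kinase of the type I receptor, was 45.3 ± 3.12 and 36.7 ± 1.01 CPM, and Ifngr2, a chain of the type II receptor, was 430 ± 21.6 and 292 ± 77 CPM.

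Of 13 further sensors and adaptors, 4 fell in duodenum (30.8% against 5.11% of all genes, median log2 fold change -0.42) and 5 in ileum (38.5% against 14.6%, median -0.20). In duodenum these included Irf5 (log2 fold change -0.76), Tlr3, the endosomal sensor of double-stranded RNA (-0.63), and Mavs, the mitochondrial adaptor of RIG-I (-0.42). The nucleic acid sensors Tlr9 and Tlr7 fell in ileum from 6.71 ± 2.83 to 1.27 ± 0.312 CPM and from 9.91 ± 1.86 to 3.83 ± 0.544 CPM. Tlr9 was highest in C154, at 7.68 CPM in duodenum and 10.8 CPM in ileum. Of 27 further induced genes, 14 fell in duodenum (51.9% against 5.11% of all genes, median -0.81) and 19 in ileum (70.4% against 14.6%, median -0.87). Cmpk2, a mitochondrial nucleotide kinase next to Rsad2, fell in both, from 56.2 ± 14.8 to 20.7 ± 5.73 CPM and from 39.2 ± 6.5 to 8.82 ± 1.89 CPM. Adar, the RNA editing enzyme, and Ifit3b fell by 0.69 and 1.76 in duodenum, and Trim30a fell by 1.57 in ileum.

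Of 12 further Gbp and Irg genes, 9 could be tested, of which 7 fell in duodenum (77.8% against 5.11% of all genes, median -0.87) and 9 in ileum (against 14.6%, median -1.75). The 3 with the smallest p in duodenum were Gbp9, Gbp6 and Tgtp2, with log2 fold changes of -0.87, -1.59 and -1.41. In ileum Gbp2b fell from 5.33 ± 1.06 to 0.912 ± 0.0895 CPM and Gm12250 (Irgb10) from 6.02 ± 2.47 to 0.884 ± 0.27 CPM. Of 7 negative regulators, 2 fell in duodenum (28.6% against 5.11% of all genes), the phosphatase gene Ptpn6 and the ubiquitin ligase gene Trim21, by 0.61 and 0.62. In ileum 4 fell (57.1% against 14.6% of all genes) and 1 rose, which is near the 19% of all genes that rose. Socs1, an inhibitor of the Janus kinases, fell from 2.40 ± 0.351 to 0.759 ± 0.302 CPM in ileum and was 1.01 ± 0.128 and 0.674 ± 0.265 CPM in duodenum (adjusted p = 0.23). The gene that rose in ileum was Ptpn2, named after its values were seen, from 22 ± 1.88 to 31.5 ± 3.25 CPM.

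Among immune cell markers, most of those of T cells and of macrophages and dendritic cells were lower in mutant mice in both tissues. The other immune lists had more markers lower in ileum than in duodenum. Of 8 T cell markers, 5 fell in duodenum (62.5% against 5.11% of all genes), where their summed level was 82.4 to 113 CPM in control and 39.6 to 68.9 CPM in mutant mice. All 8 fell in ileum (against 14.6% of all genes), from 40.7 to 76.4 CPM down to 11 to 19.6 CPM, and 5 of the 8 fell more in ileum than in duodenum, against 4.13% of all genes. Of 10 macrophage and dendritic cell markers, 9 fell in each tissue (90% against 5.11% and 14.6% of all genes), with sums of 366 to 440 against 244 to 294 CPM in duodenum and 193 to 262 against 111 to 170 CPM in ileum. None of these markers was at 0 in a whole group. Of 5 tested NK cell and innate lymphoid cell markers, 0 fell and 1 rose in duodenum (edgeR, 3 at an unadjusted p under 0.05), and their sums overlapped, at 121 to 199 and 138 to 243 CPM. In ileum 2 of 6 fell (33.3% against 14.6% of all genes, median log2 fold change -1.08), with sums of 54.8 to 80.3 and 30.1 to 62.8 CPM. Plasmacytoid dendritic cells are strong producers of type I interferon. Of 5 tested markers of these cells, 1 fell in duodenum (20% against 5.11% of all genes) and 4 in ileum (80% against 14.6%). The difference was below 0 for 3 of the 5 in duodenum and 4 in ileum, and Tcf4 was 59.7 and 65.3 CPM in control and mutant duodenum. Siglech, a surface receptor of these cells, fell in both, from 0.879 ± 0.343 to 0.13 ± 0.0565 CPM in duodenum and from 0.595 ± 0.368 to 0.0599 ± 0.0357 CPM in ileum. Its mutant levels rest on 23 counts in duodenum and 14 in ileum. Their summed levels, 95.5 to 208 against 128 to 1440 CPM in duodenum and 131 to 166 against 97.9 to 130 CPM in ileum, include Klk1, which reached 643 ± 582 CPM in mutant duodenum. Of 8 B cell and follicle markers, 6 fell in ileum (75% against 14.6% of all genes, median -4.96), with sums of 8.82 to 175 against 3.99 to 7.2 CPM. In duodenum 0 of the 4 tested fell (edgeR, 1 at an unadjusted p under 0.05, median -1.19). Of 7 enterocyte markers, 0 passed the edgeR test in either tissue (0 in duodenum and 1 in ileum at an unadjusted p under 0.05), with sums of 24500 to 29900 against 23800 to 34400 CPM in duodenum. The part of these cells in the differences of the members was not tested.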

How the data were processed

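Stranded total RNA libraries were made after ribosomal RNA depletion, per the labels' protocols. Per the submitters' processing notes, mm39 was used with HTSeq 0.6.1p1, STAR 2.5.3a, Bowtie2 2.2.8 and cutadapt 1.10. Roles, annotation and counting strand: not given in the sources used here. Raw counts per gene, as deposited by the authors, were analysed. Of the members, 17 have exons that overlap another gene in GENCODE M21 (Parp9 with Dtx3l and Igtp with Irgm2 among them), so overlapping reads may be lost or shared.

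M21, on an earlier assembly, gave names only, for 52083 of 55359 identifiers; unnamed ones held 1.02% of counts. Groups follow the labelled genotype and tissue. Each tissue was fitted alone with edgeR 4.0.16 (R 4.3.3): filterByExpr, TMM scaling, robust quasi-likelihood F test, and Benjamini-Hochberg adjustment over all tested genes at 0.05. The genotype by tissue term used all 16 libraries, and tissue contrasts the 8 of a genotype. CPM used TMM sizes over 16 libraries, and levels the log2 CPM with a prior count of 2. Alternatives were DESeq2 1.42.0 and limma 3.58.1 (voom), DESeq2 size factors, filters, all libraries in 1 fit, a mouse block and leaving out mice. The scripts were tested on simulated data. Library totals and the 4 mice per group set the precision.

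The labels' numbers were the same in both tissues. Residuals of the duodenum and ileum libraries of a number correlated at 0.23 to 0.49 over 19018 genes in all 8 mice, best with their own number in 7 of 8, so the numbers were read as mice.

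Members and lists were chosen with earlier results of these data known. Values in every library are given for the 6 antiviral members and 4 GTPases with the smallest p in duodenum, the 3 of each class in ileum and the 3 of the genotype by tissue term; from each pathway list the 3 smallest p in duodenum and 2 in ileum may be named. Some genes that this rule allows are not reported here.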

Additional observations from a re-analysis of the deposited data

Results flagged for a closer look

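In each group of 4 mice, a mouse was picked out when its gap to the nearest other mouse was so large a share of the group's range that it passed Dixon's 95% critical value. Of 160 combinations of member and group, 8 met this (5%), and chance alone picks out about 5% of groups. In control duodenum the mouse was C151, with 25 CPM of Iigp1 against 15.3 to 16 in the others. In mutant duodenum M177 had 1.8 CPM of Mx2, against 0.354 to 0.543. Usp18 and Tgtp1 were low in M167 in the same group, at 1.98 and 0.26 CPM, against 8.62 to 9.5 and 0.358 to 0.376. In control ileum C133 was high for Oas3 and Oasl2, with 35.6 and 87.3 CPM, against 13.1 to 15.2 and 33.6 to 39.7. In mutant ileum Dhx58 was 3.21 CPM in M177, against 1.88 to 2.05, and Ifi47 was 7.62 CPM in M136, against 5.96 to 6.24.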

How the results depend on the processing

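No member was called higher in any comparison under any alternative run. In duodenum the antiviral members called lower numbered 18, and 28 with the DESeq2 Wald test, 7 to 15 when each mouse was left out in turn, 9 without control mice C134 and C154, and 10 without mutant mice M167 and M177. The GTPases numbered 9, 6 to 9 when each mouse was left out, 8 without C134 and C154, and 1 without M167 and M177. Fits that leave out mice hold fewer of them, and the cause of the changes in count was not tested. In ileum the counts were 25 to 29 and 8 to 9 when each mouse was left out, in fits whose share of all genes is not given here. For the genotype by tissue term, with 0 called, DESeq2 called 1 antiviral member and 1 GTPase, as did a filter of 1 CPM in at least 4 libraries. The share of all genes in those fits is not given here, so these counts are not read as a result. With the mouse as a replicate block, 3 antiviral members and 2 GTPases were called, against 10% of all genes. Leaving out each mouse gave 0 antiviral members and 0 to 1 GTPase (1 without M167), and 1 GTPase without M167 and M177. The median GTPase difference was -0.34 to 0.01 when each mouse was left out, and reversed to 0.01 without M136. The block moved no tissue contrast beyond 1.5 times, at 30 and 7 in control and 28 and 7 in mutant mice. The share of all genes in these contrasts with the block is not given here. The GTPases lower in ileum of control mice were 3 to 6 when each mouse was left out, and 3 without C151. Counts from fits without a share of all genes here or above are not read as a result.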
